A study of Mus musculus with 6 samples.

Results

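Brush border peptidases are the membrane enzymes that finish the digestion of peptides on the microvilli of enterocytes. A set of 9 genes of this kind was followed here in the middle small intestinal mucosa of alk-SMase KO and WT mice: Anpep, Enpep, Xpnpep2, Dpp4, Ace, Dpep1, Mep1a, Mep1b and Mme. They were picked by gene symbol, with earlier results of these data known, and they make up 9 of the 22700 rows of the expression table. All 9 had a row and all 9 passed the filter on low values (FPKM of at least 1 in at least 2 libraries), so that none is missing from the counts below.

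Most dietary protein leaves the lumen as small peptides and free amino acids, after pancreatic proteases have cut it into oligopeptides. The oligopeptides are then trimmed at the apical membrane: aminopeptidases remove residues from the amino end, dipeptidyl peptidases and dipeptidases act on pairs of residues, and endopeptidases cut within the chain. The products enter the cell through the proton-coupled peptide transporter Slc15a1 and through amino acid transporters such as Slc6a19, some of which sit in the membrane beside a peptidase. Several of these enzymes also work on peptide hormones, and most are made in kidney as well as in intestine.

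The KO mice carry a Cre-loxP deletion of exon 2 of Enpp7, the gene for alkaline sphingomyelinase (alk-SMase), which splits sphingomyelin at the same brush border. KO and WT mice are of the C57BL/6 strain, and their age and sex are not given in the sources used here. RNA was sequenced from 3 mice of each genotype, with 1 library per mouse. The KO libraries are named K79S, K82S and K86S, the WT libraries are W83S, W89S and W90S, and where 3 values of a genotype are listed they stand in this order. The study names 3 pairs of mice, but the labels do not say which mice form a pair.

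Expression was deposited as FPKM, fragments scaled to transcript length and to the mapped reads of the library, with no record of reads per gene, so the depth behind a single value is unknown. The gene names of the deposited table stand beside the values of other genes. They were restored by rank for 12402 rows, and with the restored names values of at most 6 decimals belonged to 99.7% of the 3649 genes with 1 transcript and to 5.80% of the 8748 genes with several. Shifting the names by 1 row gave 34.3% and 33.0% in one direction and 35.5% and 32.5% in the other. Anpep (6 transcripts) and Mep1b (3 transcripts) had values of at most 6 decimals, as few genes with several transcripts did. The check therefore does not speak for the rows of these genes singly. All values below rest on the restored names. Enpp7 had 604.5, 129 and 670 FPKM in KO, and 406, 667 and 495 FPKM in WT. The log2 fold change was -0.45 with SE 0.64 (adjusted p = 0.782, limma), and a value over the whole gene does not test for the loss of 1 exon. All 10 markers of absorptive enterocytes were detected, with a summed level of 22370 to 33520 FPKM in the KO libraries and 32231 to 35948 FPKM in the WT libraries. W83S stood apart: 6 stomach genes summed to 38524 FPKM there and to at most 5.24 FPKM in any other library, and 3 pancreatic genes to 10209 FPKM against at most 83.8 FPKM. In K79S the Y-linked gene Ddx3y was at 0.0279 FPKM, while the other 5 libraries had 2.93 to 4.01 FPKM.

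The sequences just before the start sites are shown for Anpep, Enpep and Dpp4, whose KO and WT values did not overlap, and for Ace and Mep1a, whose values differed most within a genotype. They come from RefSeq on GRCm38.p6, run from 5′ to 3′ on the strand of the gene and end next to the start site, except that annotated exon bases were taken off (3 for Ace and 39 for Mep1a). Capitals mark the TATA motif TATAAA or its complement TTTATA, and in Dpp4 also the GATA motif AGATAA. Anpep lies at chr7:79848211-79848460 on the minus strand, inside the span of the gene, Enpep at chr3:129332750-129332999 (minus), Dpp4 at chr2:62412232-62412481 (minus), Ace at chr11:105967698-105967944 (plus) and Mep1a at chr17:43502813-43503023 (minus).
Anpep: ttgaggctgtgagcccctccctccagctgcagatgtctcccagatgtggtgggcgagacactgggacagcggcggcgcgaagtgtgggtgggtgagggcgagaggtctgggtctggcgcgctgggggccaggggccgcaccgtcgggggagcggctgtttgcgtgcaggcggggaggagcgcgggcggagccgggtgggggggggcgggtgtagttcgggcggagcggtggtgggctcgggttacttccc
Enpep: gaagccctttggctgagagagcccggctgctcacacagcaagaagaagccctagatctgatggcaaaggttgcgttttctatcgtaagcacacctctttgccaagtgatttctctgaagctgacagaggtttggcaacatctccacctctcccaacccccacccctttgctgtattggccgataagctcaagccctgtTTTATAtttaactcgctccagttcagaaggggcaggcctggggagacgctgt
Dpp4: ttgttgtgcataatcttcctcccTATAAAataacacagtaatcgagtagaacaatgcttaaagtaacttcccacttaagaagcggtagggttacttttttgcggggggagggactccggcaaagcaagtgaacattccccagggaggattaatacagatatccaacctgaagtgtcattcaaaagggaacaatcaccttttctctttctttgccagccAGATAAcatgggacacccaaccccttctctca
Ace: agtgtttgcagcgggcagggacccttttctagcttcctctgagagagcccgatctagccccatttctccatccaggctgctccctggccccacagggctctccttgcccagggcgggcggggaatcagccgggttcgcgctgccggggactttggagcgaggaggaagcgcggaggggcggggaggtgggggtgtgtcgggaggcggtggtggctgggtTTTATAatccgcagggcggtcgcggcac
Mep1a: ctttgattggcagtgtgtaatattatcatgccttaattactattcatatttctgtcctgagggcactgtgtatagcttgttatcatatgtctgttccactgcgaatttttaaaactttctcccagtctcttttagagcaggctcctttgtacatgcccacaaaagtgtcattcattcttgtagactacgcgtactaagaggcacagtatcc

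The 5 windows differed widely in base composition. Over the full 250 bases G and C made up 72.8% in Anpep and 67.2% in Ace, against 52.4% in Enpep, 43.6% in Dpp4 and 41.6% in Mep1a, and the quartiles of the 32851 mouse promoters in the table were 45.2% and 61.2%. A search on both strands found the TATA motif in Ace 31 to 26 bases before the start, in Enpep 52 to 47 bases before it and in Dpp4 at a distance of 227 to 222 bases. This makes 3 of the 11 promoters listed for 8 of the peptidase genes, beside 12.4% of all promoters. AGATAA, the only form of the GATA motif searched, was found in Dpp4 alone, 32 to 27 bases before the start. It was held by 9.99% of all promoters. Other forms such as TGATAA were not searched. The letters searched for other factors of the gut epithelium were in none of the 11 windows. These were GTTAAT, one arm of the HNF1 site, held by 6.43% of all promoters, the HNF4 site CAAAGTCCA, held by 0.384%, and the CDX site, written as TTTATTG or TTTATGG or TTTACTG or TTTACGG and held by 10.1%. No 2 matches overlapped. The 3 peptidases without overlap between the genotypes thus shared none of these motifs beyond a TATA motif at different distances in Enpep and Dpp4.

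Per length of transcript, Anpep was the most abundant of the 9 mRNAs in every library. In WT the mean level fell from 1718 ± 190 FPKM (SD, n = 3) for Anpep through Mep1b (550 ± 43.9), Enpep (323 ± 34.0), Ace (321 ± 89), Dpep1 (271 ± 80.2), Dpp4 (155 ± 13.5), Mep1a (107 ± 96.4) and Xpnpep2 (65.3 ± 36.1) to Mme (64.0 ± 26.0). The steps from Anpep to Mep1b, from Mep1b to Enpep and from Dpep1 to Dpp4 were wider than the spread, with no overlap of the WT values. The WT ranges of the other neighbours overlapped: Enpep and Ace, Ace and Dpep1, Dpp4 and Mep1a, Mep1a and Xpnpep2, and Xpnpep2 and Mme. Compared within each library, Mep1a was above Xpnpep2 in 3 of 3 WT and 2 of 3 KO libraries. The other pairs named changed order between WT libraries. Dpp4 was above Xpnpep2 and Mme in all 6 libraries. Together the 9 mRNAs made up 0.650% to 0.807% of all FPKM in WT and 1.09% to 1.75% in KO. Anpep alone held 44.2% to 57.9% of their sum.

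**Figure D1:**
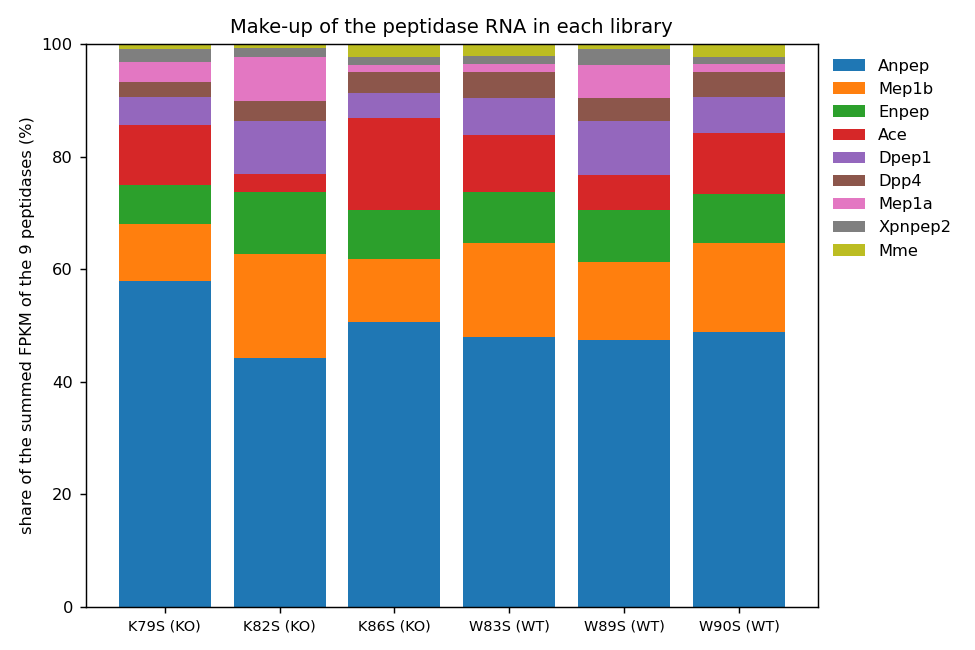
Share of each peptidase in the summed FPKM of the 9 peptidases (vertical axis, percent) in the 3 KO and 3 WT libraries. Anpep is the largest block in all 6 libraries, Ace ranges from 3.33% in K82S to 16.3% in K86S, and Mep1a from 1.12% in K86S to 7.81% in K82S.

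Of the aminopeptidases, Anpep and Enpep were higher in every KO library than in any WT library. Anpep encodes aminopeptidase N, which removes neutral residues from the amino end of peptides and is among the main proteins of the microvillus membrane (gene on the minus strand of chromosome 7, 79821803 to 79861059, mm10). Its FPKM was 3977, 2249 and 2384 in KO, and 1504, 1783 and 1867 in WT. The lowest KO library lay 1.20 times above the highest WT library, and K79S stood well above the other KO libraries. The mean was 2870 ± 961 FPKM in KO (SD, n = 3) and 1718 ± 190 FPKM in WT. The log2 fold change, on log2(FPKM + 1) as for all genes here, was 0.70 with SE 0.28. It did not pass the test (limma, Benjamini-Hochberg adjusted p = 0.393 over 13089 rows). Without K79S it was 0.44.

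Enpep encodes aminopeptidase A, which removes acidic residues and also takes part in the breakdown of angiotensin (chromosome 3, minus strand, 129269175 to 129332720). It had 472, 557 and 409 FPKM in KO, against 285, 350 and 335 FPKM in WT. Here K82S and not K79S was the highest, and the gap between the lowest KO and the highest WT library was 1.17-fold. Enpep showed the smallest standard error of the genes with a change above 0.5, with a log2 fold change of 0.56, SE 0.20 and adjusted p = 0.393.

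Xpnpep2 encodes the membrane-bound aminopeptidase P, which frees a residue that stands before proline (chromosome X, plus strand, 48108725 to 48136981). Its levels were 161, 88.0 and 65.0 FPKM in KO and 40.4, 107 and 48.8 FPKM in WT. The genotypes overlapped, because W89S was above K82S and K86S. The log2 fold change was as large as that of Anpep, 0.70, but its SE of 0.46 was wider (adjusted p = 0.525).

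Dpp4 encodes dipeptidyl peptidase IV, which releases dipeptides that end in proline or alanine and inactivates incretin hormones (chromosome 2, minus strand, 62330073 to 62412231). It was the least variable of the 9 genes, with 184, 176 and 178 FPKM in KO and 143, 152 and 170 FPKM in WT. All KO values lay above all WT values, but the lowest KO library was only 1.04 times above the highest WT library. The log2 fold change was 0.21 with SE 0.16 (adjusted p = 0.574). Dpp4 is also made by T cells, and 8 of 9 measured markers of T and NK cells had all KO libraries above all WT libraries, with a summed level of 183 to 265 FPKM in KO and 86.2 to 138 FPKM in WT. None of the 9 was called (limma), and 8 had an unadjusted p under 0.05. Their part in the Dpp4 values was not tested. In bulk mucosa, fewer cells of a type and less RNA per cell cannot be told apart.

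Ace encodes angiotensin-converting enzyme, a dipeptidyl carboxypeptidase that takes dipeptides from the carboxyl end (chromosome 11, plus strand, 105967945 to 105989964). In KO it had 732 FPKM in K79S and 767 FPKM in K86S but 170 FPKM in K82S, the lowest of all libraries. The WT libraries had 317, 234 and 412 FPKM. The highest KO library was thus 4.52 times the lowest, against 1.76 times in WT, and the log2 fold change of 0.55 had an SE of 0.60 (adjusted p = 0.714). Without K82S the change was 1.26 and passed the test (limma, adjusted p = 0.0473). In that fit 0.4% of 12764 rows were called higher in KO, and Ace was the only peptidase among them. In either direction 1184 rows were called there, against 1 in the fit with all 6 libraries.

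Dpep1 encodes a GPI-anchored dipeptidase that splits dipeptides into free amino acids (chromosome 8, plus strand, 123186242 to 123201812). It had 341, 479 and 215 FPKM in KO and 205, 360 and 247 FPKM in WT. Each genotype held 1 or more libraries above 340 FPKM and others below 250 FPKM. The log2 fold change of 0.31 was smaller than its SE of 0.35 (adjusted p = 0.721).

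The endopeptidases had unlike patterns. Mep1a and Mep1b encode the alpha and beta subunits of meprin, a zinc endopeptidase of the astacin family whose beta subunit is anchored in the membrane and holds the alpha subunit there. Mep1a (chromosome 17, minus strand, 43474324 to 43502812) had 243, 398 and 52.5 FPKM in KO, and 49.4, 218 and 52.9 FPKM in WT. The values fell into a high range, held by K82S, K79S and W89S, and a low range, held by W90S, K86S and W83S, with a 4.12-fold step between them that cut across the genotypes. Within KO the libraries differed 7.57-fold and within WT 4.41-fold, both more than the 2.16-fold ratio of the means. The log2 fold change was the largest of the 9 and had the widest SE, 1.04 with SE 0.88 (adjusted p = 0.626).

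Mep1b (chromosome 18, plus strand, 21061923 to 21100199) was steadier than its partner. It had 690, 943 and 527 FPKM in KO and 529, 521 and 601 FPKM in WT, with a log2 fold change of 0.35 and SE 0.25 (adjusted p = 0.565). Mep1b was above Mep1a in all 6 libraries. The ratio of Mep1a to Mep1b was 0.353, 0.422 and 0.0997 in KO, and 0.0935, 0.419 and 0.0881 in WT. It thus took values near 0.4 or near 0.1 in both genotypes, and the mean log2 ratio differed by 0.70 between KO and WT (exact two-sided permutation test, p = 0.5, with 0.1 the smallest p that 3 against 3 libraries allow). This difference lay between 0.31 (without K82S) and 1.44 (without W89S) when 1 library was left out.

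Mme encodes neprilysin, an endopeptidase that cuts before hydrophobic residues and degrades many peptide hormones (chromosome 3, plus strand, 63241537 to 63386030). It had 64.5, 32.2 and 113 FPKM in KO and 68.7, 36.0 and 87.3 FPKM in WT. The range of the KO libraries enclosed that of the WT libraries. Its log2 fold change was 0.04 with SE 0.51 (adjusted p = 0.978), and its sign turned to -0.39 without K86S and to -0.32 without W89S.

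**Figure D2:**
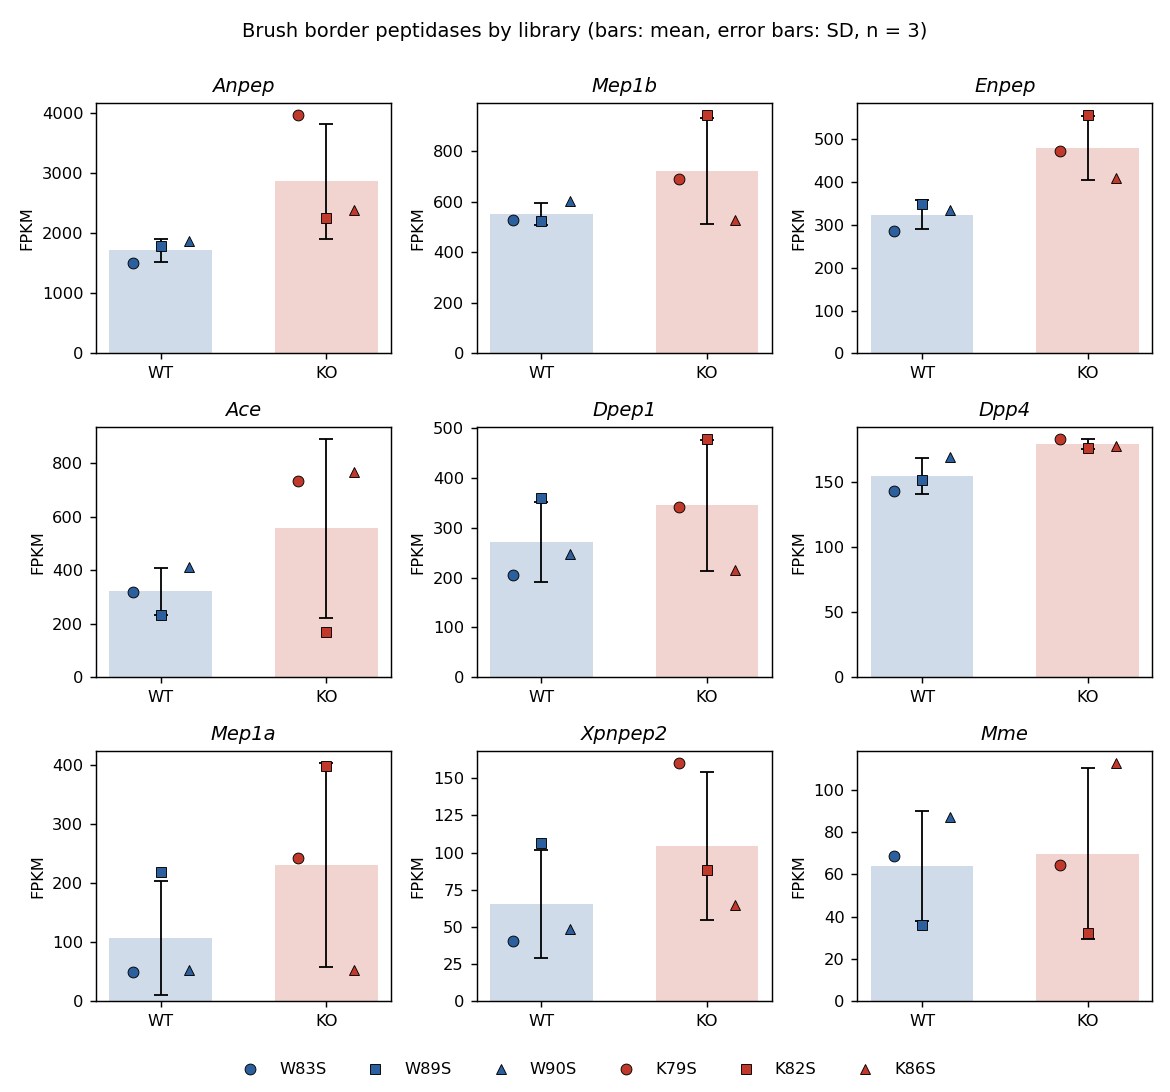
FPKM of each peptidase (vertical axes, linear, from 0) in the 3 WT and 3 KO libraries. Bars are means, error bars are SD over the 3 libraries of a genotype, and symbols are single libraries. The KO points lie above all WT points in Anpep, Enpep and Dpp4, and in the other 6 panels they overlap.

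Over the set, 9 of 9 peptidases had a log2 fold change above 0, in a data set where 42.3% of the 13089 rows did. Their median was 0.55, beside -0.06 for all rows. None of the 9 passed the test, with adjusted p-values of 0.393 to 0.978. Across all rows 1 was called (0.00764%), Gm29008. At an unadjusted p under 0.05 there were 2 of 9 peptidases, Anpep and Enpep, both higher in KO, where 2.87% of rows met this and were higher. Anpep, Enpep and Dpp4 make 3 of 9 with all KO libraries above all WT libraries, beside 5.9% of all rows, and 0 of 9 had all KO libraries below, beside 11.3% of all rows. Without W83S or without K79S it was again Anpep, Enpep and Dpp4, where 7.72% and 8.84% of all rows were above. After scaling of each library to the same sum of FPKM, the median over all rows moved from -0.06 to 0.09, the shares of rows above and below became 14.3% and 5.84%, and the same 3 peptidases were above. The summed FPKM of the 9 genes was 6864, 5092 and 4710 in KO and 3141, 3761 and 3821 in WT. Without Anpep the sum was 2326 to 2887 FPKM in KO and 1637 to 1978 FPKM in WT, again without overlap.

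**Figure D3:**
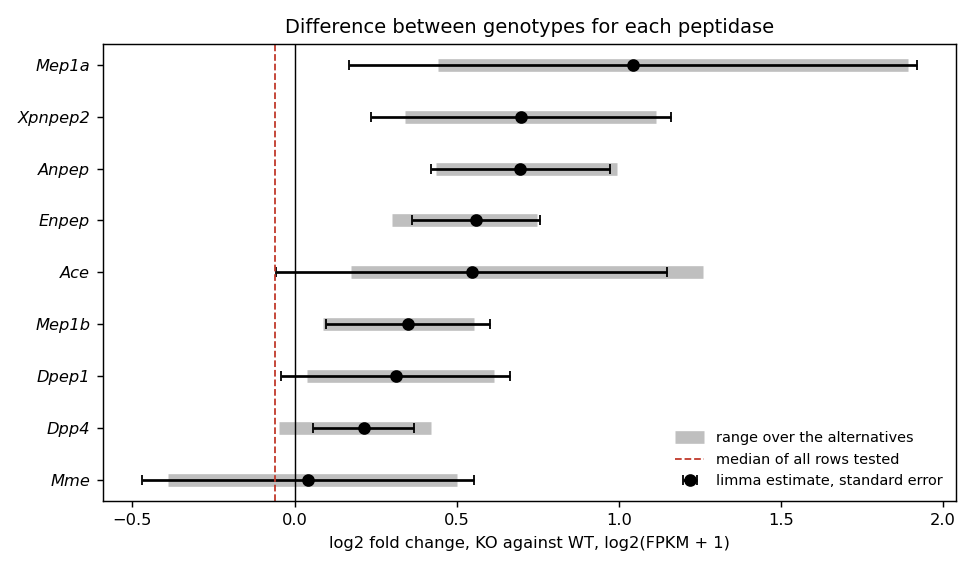
Log2 fold change of each peptidase, KO against WT (horizontal axis, on log2(FPKM + 1)). Points are limma estimates with their standard error, grey bars span the 17 alternative fits, and the dashed line is the median of all rows tested (-0.06). All 9 points lie right of 0, from 0.04 for Mme to 1.04 for Mep1a, and the grey bars of Dpp4 and Mme reach below 0.

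A list of brush border structural genes was set beside the peptidases. Beside genes of the microvillus core it holds more general epithelial genes such as Epcam, Krt20 and Lgals4. Of 17 brush border structural genes 16 had a log2 fold change above 0 and 4 had all KO libraries above all WT libraries, with a median of 0.26. None was called (limma), and 2 had an unadjusted p under 0.05. Vil1, the actin bundler villin, had 1445, 1107 and 1164 FPKM in KO and 897, 1312 and 1014 FPKM in WT. Relative to Vil1, Anpep stood at 2.75, 2.03 and 2.05 in KO and at 1.68, 1.36 and 1.84 in WT, still without overlap. Enpep overlapped, with 0.327 to 0.503 in KO and 0.266 to 0.331 in WT. Dpp4 overlapped as well, with 0.127 to 0.159 in KO and 0.116 to 0.167 in WT. When all libraries were scaled to the mean of the structural genes, the median over all rows became -0.32. Anpep (0.44) was then the only peptidase without overlap, beside 0.749% of all rows. Enpep was at 0.30, Mep1a at 0.78, Xpnpep2 at 0.44, Ace at 0.29, Mep1b at 0.09 and Dpep1 at 0.05, and Dpp4 and Mme took the other sign (-0.05 and -0.22).

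The high libraries of Mep1a were also high in other peptidases and in genes that differ along the length of the gut, mostly with smaller steps. K82S, K79S and W89S were the 3 highest libraries for Mep1a, Dpep1 and Xpnpep2, with a step from the third to the fourth library of 4.12-fold, 1.38-fold and 1.35-fold. They were also the highest for Naaladl1, a further membrane peptidase (1630, 1657 and 586 FPKM in KO, and 387, 1179 and 407 FPKM in WT). Of 5 restored distal markers 4 (Slc51a, Slc51b, Osr2 and Muc3a) had the same 3 libraries on top, and the other, Ggt1, was lowest in K82S with 226 FPKM. These libraries were also on top for some brush border structural genes, such as Ezr, Espn and Epcam, but not for Vil1 or Cdhr2. The pattern is thus not particular to regional genes, and its share over all rows was not counted. Slc51a and Slc51b are the subunits of the basolateral bile acid transporter of the distal small intestine, with Slc51a at 421, 885 and 450 FPKM in K79S, K82S and W89S and at 169 to 219 FPKM in the other 3. Ace and Mme were highest in K86S and lowest in K82S. Their order was not the reverse of that of Mep1a, since K79S was the second library for both Mep1a and Ace. Of 8 proximal markers 4 (Gata4, Lct, Apoa4 and Cyp2c65) were lowest in K82S, while Slc40a1 was second highest there with 5.11 FPKM. Lct, the lactase of the proximal and middle small intestine, had the library order of Ace in all 6 places (456, 76.3 and 490 FPKM in KO, and 243, 163 and 285 FPKM in WT). Apoa4, an apolipoprotein of chylomicrons, had the library order of Mme in all 6 places, with 10434 FPKM in K86S and 2820 FPKM in K82S. The orders of Anpep, Enpep and Dpp4 followed genotype instead.

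A score was made from the lists of regional markers, the mean log2 level of the distal list minus that of the proximal list. It was 1.49, 2.26 and 0.13 in KO and -0.25, 1.99 and 0.83 in WT, so both genotypes held libraries with high and with low scores. The low score of W83S rests in part on 2 proximal markers that were highest in that library. Cybrd1 had 6.05 FPKM there and at most 0.503 FPKM elsewhere, and Slc40a1 had 7.08 FPKM. W83S is also the library with stomach and pancreatic genes, and the score without these 2 markers was not computed. None of the 9 peptidases is in these lists. With the score as a covariate, an alternative chosen after the data were seen, the log2 fold change of Mep1a was 0.54 in place of 1.04, that of Dpep1 0.12 in place of 0.31 and that of Xpnpep2 0.50 in place of 0.70. Ace went from 0.55 to 0.78 and Mme from 0.04 to 0.30. Anpep (0.67), Enpep (0.49), Dpp4 (0.20) and Mep1b (0.27) moved by less than 0.1, and none of the 9 passed the test. The lowest adjusted p in that fit was 0.218, for Enpep (limma). Whether the position of the sampled segment had a part in these values was not tested.

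**Figure D4:**
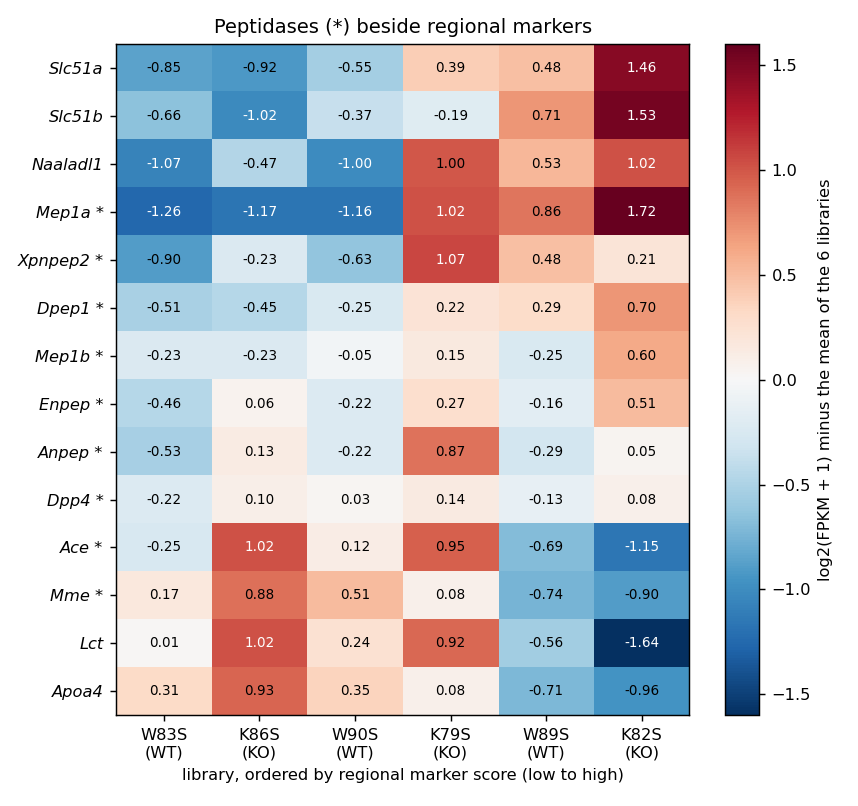
Log2(FPKM + 1) minus the mean of the 6 libraries (colour and printed value) for the peptidases (asterisks), Naaladl1 and regional markers, in libraries ordered from the lowest to the highest regional marker score. Mep1a runs from -1.26 in W83S to 1.72 in K82S and Ace from 1.02 in K86S to -1.15 in K82S. In K82S the rows from Slc51a to Dpep1 are above their mean and those of Ace, Mme, Lct and Apoa4 below it, while in W83S both Mep1a and Ace are below it.

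Other lists of the same digestive pathway were set beside the 9 peptidases. Of 15 restored genes for other surface and luminal peptidases, 11 had a log2 fold change above 0, 2 had all KO above all WT libraries and 0 were called, with a median of 0.21. Among the most abundant were Naaladl1 (1.03, SE 0.58) and the glutathione-degrading Ggt1 (0.22, SE 0.24). The partners of peptide and amino acid uptake had 10 of 11 above 0, 1 without overlap and a median of 0.38. Among them Slc15a1 was at 0.38 (SE 0.33), Slc6a19 at 0.63 (SE 0.27) and Slc3a1, the subunit of the cystine transporter, at 0.39 (SE 0.18) with 172 to 206 FPKM in KO and 127 to 165 FPKM in WT. The 24 cytosolic and lysosomal peptidases, which finish the work inside the cell, had 12 above 0 and a median of 0.00, with Cndp2 at 0.12 (SE 0.21), Pepd at 0.16 (SE 0.24) and Lap3 at 0.16 (SE 0.25). The hydrolases of sugars, lipids and phosphate on the same membrane had 10 of 12 above 0 and a median of 0.15, with Alpi, the intestinal alkaline phosphatase, at 0.28 (SE 0.34) and Sis, sucrase-isomaltase, at -0.37 (SE 0.30). Enterocyte transcription factors had 10 of 15 above 0 and a median of 0.11, with Hnf4a at 0.33 (SE 0.27). The general markers of absorptive enterocytes had 2 of 10 above 0, a median of -0.34 and 1 at an unadjusted p under 0.05. None of the genes in these lists was called (limma). Of the other lists there was 1 gene each at an unadjusted p under 0.05 among the surface peptidases, the cytosolic and lysosomal peptidases and the transcription factors, and 0 among the uptake partners and the hydrolases.

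**Figure D5:**
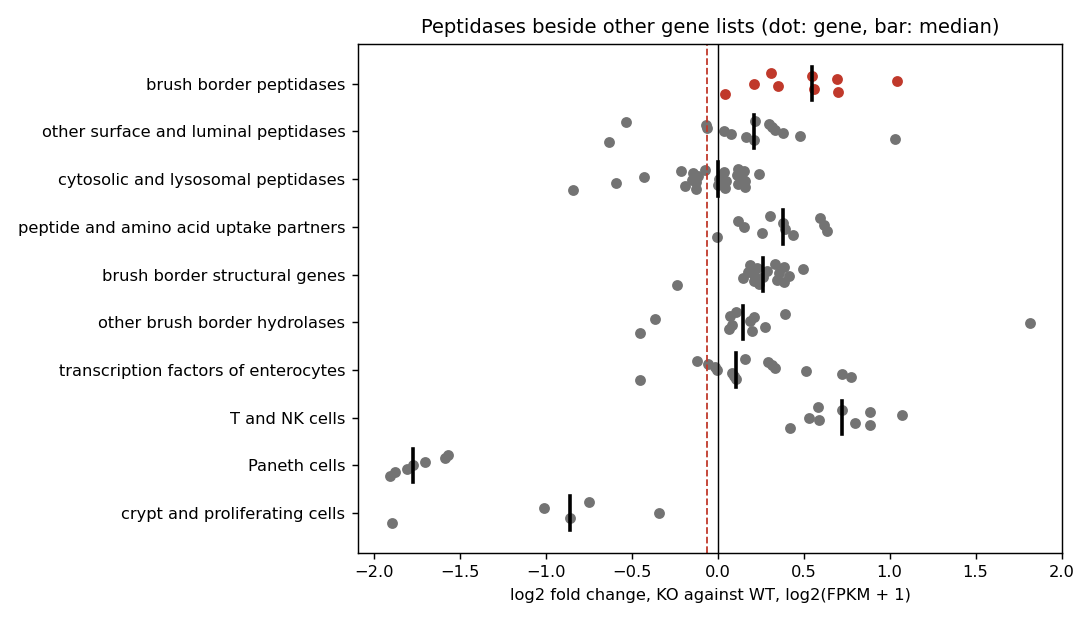
Log2 fold change, KO against WT, of the 9 brush border peptidases (red), 6 other lists of genes and 3 lists of cell type markers (grey), on log2(FPKM + 1). Dots are genes, bars are list medians and the dashed line is the median of all rows (-0.06). The peptidases have a median of 0.55, the cytosolic and lysosomal peptidases 0.00, and all 7 Paneth cell genes lie left of 0.

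Within the epithelium the peptidases are made mainly by mature villus cells, so markers of the crypt were read as well. The 5 restored markers of crypt and proliferating cells summed to 24.1 to 60.4 FPKM in KO and 61.0 to 110 FPKM in WT, with Olfm4 at -1.90 (SE 0.57) on the log2 scale, and the 7 Paneth cell markers to 776 to 5428 FPKM and 3040 to 10670 FPKM. None of these markers was called (limma), and 2 of the crypt markers and 0 of the Paneth cell markers had an unadjusted p under 0.05. Their part in the peptidase values was not tested.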

How the data were processed

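RNA of middle small intestinal mucosa from 3 KO and 3 WT mice was read as 50 bp single-end reads. The authors mapped the reads to mm10 with HISAT2, quantified genes with StringTie and deposited FPKM values, scaled to transcript length and mapped reads. Versions and strand handling are not given in the sources used here. FPKM holds no counts, so no count model and no counting interval was used.

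Gene names were restored by rank. The name beside the nth highest K79S value was given to the row with the nth highest W83S value, plus a small offset fixed for each of 12 stretches of ranks, and 10298 rows were left without a name. Names and coordinates are those of GENCODE M21. Rows with FPKM of at least 1 in at least 2 libraries were kept. Genotypes were compared on log2(FPKM + 1) by limma 3.58.1 under R 4.3.3, using lmFit and eBayes with trend, and p-values were adjusted by Benjamini-Hochberg over all rows. A call needed an adjusted p under 0.05 and a fold above 1.5 or below 2/3. A check of the fit on simulated data used changes larger than any estimated here for the peptidases, so it does not measure the power for these. No test was made over the peptidases as a set.

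The peptidases, the gene lists and the rules were chosen with earlier results of these data known. All 9 peptidases are named, and of each list up to 3 genes of highest mean FPKM, of which 1 is not reported here. The alternatives were other pseudocounts, filters and scalings, array weights, a regional covariate and leaving out each library. Promoters were searched with Python 3.11.15 for exact letters.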

Additional observations from a re-analysis of the deposited data

How the results depend on the processing

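Of the 9 peptidases, 7 kept the sign of their log2 fold change in all 17 alternative fits. Dpp4 turned to -0.048 and Mme to -0.22 with libraries scaled to the structural genes, and Mme to -0.39 without K86S and -0.32 without W89S, within a range of -0.39 to 0.50 over the libraries left out. Leaving out 1 library at a time moved Mep1a between 0.44 (without K82S) and 1.89 (without K86S), Ace between 0.17 (without K86S) and 1.26 (without K82S), Anpep between 0.44 (without K79S) and 0.85 (without K82S), Xpnpep2 between 0.34 (without K79S) and 1.11 (without W89S), Dpep1 between 0.04 (without K82S) and 0.62 (without K86S), and Mep1b between 0.13 (without K82S) and 0.55 (without K86S). The number of peptidases called was 0 in 16 of the alternatives and 1, Ace, without K82S, so over the libraries left out it ranged from 0 to 1. The number without overlap was 1 when scaled to structural genes and 3 to 5 when a library was left out. It reached 5 without K86S, with Mep1a and Mep1b added (12.5% of all rows above), 4 without K82S, with Ace added (11.8% above and 32.1% below), and 4 without W89S, with Xpnpep2 added (12.5% above). Over all rows the calls were 1 in the fit used here, 0 with a pseudocount of 0.1 or 0.01, 2 with array weights, and 0 to 1184 over the libraries left out, with 1184 reached without K82S, 1 without W89S and 0 without each of the other 4. At an unadjusted p under 0.05 there were 1638 rows with the pseudocount of 1, 1636 with 0.1 and 1619 with 0.01. The cause was not tested. The scaling without the rows high in W83S and the regional covariate were added after the data had been seen, and changed no sign. No paired analysis was possible because the labels do not say which mice form a pair. With 3 libraries per genotype and no counts, the spread between mice sets the precision.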

Other observations

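The mean profile of the 9 peptidases, each centred on log2(FPKM + 1), was 0.53, 0.20 and 0.01 in KO and -0.47, -0.07 and -0.21 in WT. Of 4538 named genes with a mean of at least 10 FPKM, 110 followed this profile with a Pearson r of at least 0.9 over the 6 libraries, which share their scaling. The closest were Ggt6 (r = 0.992), a member of the gamma-glutamyltransferase family, and Chdh (r = 0.991), choline dehydrogenase, followed by Gtpbp2, Tpcn1, Gm31544, Rhbg, Rassf7, Fam98c, Tbc1d10b and Tmem150b (r = 0.981). Ggt6 had 16.4, 12.3 and 11.5 FPKM in KO and 8.03, 10.9 and 9.31 FPKM in WT.

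The 3 libraries with the highest Mep1a were also the 3 highest for Hnf4a, a nuclear receptor of enterocytes, with 220, 235 and 154 FPKM in KO and 129, 215 and 144 FPKM in WT. Cdx2, Maf and Plb1, chosen after their values were seen, had the same 3 libraries on top. Plb1, a brush border phospholipase, had 152, 17.3 and 3.83 FPKM in KO and 1.81, 53.4 and 1.01 FPKM in WT, a step of 4.50-fold between the third and the fourth library.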
